A study of Homo sapiens with 32 samples.

Results

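The m6A methylome of immature β-like cells was described from the 8 libraries of stage S6 out of the 32 libraries of the series. At this last stage of an in vitro differentiation, H1 and MEL1, a pair of established human embryonic stem cell (hESC) lines of different genetic background, had passed from the undifferentiated state (S0) through posterior foregut (S3) and pancreatic progenitors (S4). The labels name no knockdown or other manipulation of either line in these libraries. Each line gave 2 RNA preparations, so that 4 preparations were each split into an m6A immunoprecipitate (IP) and an input kept from the same fragmented mRNA. The members were the 4 IP and the 4 input libraries whose titles name S6, and every comparison of IP with input was made within a preparation. Whole differentiated cultures were sequenced, which also hold cells other than β-like cells, and nothing in the labels says whether the 2 preparations of a line came from separate differentiations. The study's methods describe biological replicates, and p-values measure the spread between these preparations.

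N6-methyladenosine (m6A) is the most abundant internal modification of mammalian mRNA. It is written during transcription by the METTL3-METTL14 complex, mostly in long exons and near stop codons, removed by FTO and ALKBH5, and read by YTH-domain proteins that direct the decay, translation or export of the transcript. In m6A-seq an antibody pulls down modified fragments, and a region with more IP than input reads, relative to the other regions of the same libraries, is called enriched. Short housekeeping transcripts, such as those of ribosomal proteins, are known to carry little of the mark, whereas many developmental transcription factors carry much of it. Pancreatic endocrine cells and neurons share many genes for excitability, vesicle release and the cytoskeleton, and for this reason both groups were followed.

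The deposited table gave read counts in 26073 merged peaks of 7978 genes. The 4 input libraries at S6 held 2734707 to 4442115 reads in these peaks and the 4 IP libraries held 7412086 to 15650330. Mitochondrially encoded transcripts took 11.6% to 16.4% of the input reads but 0.397% to 0.493% of the IP reads. Of 15 endocrine markers, 5 (CHGA, CPE, ISL1, PDX1 and GLIS3) had a peak, with a summed input level of 734 to 1066 CPM (read count scaled to library depth) at S6 against 45.1 to 238 CPM at S0. CHGA, a general neuroendocrine gene, made up most of this sum, at 649 to 1027 CPM, while PDX1 was at 2.79 to 60.6, CPE at 8.08 to 26.7, GLIS3 at 12.2 to 15.9 and ISL1 at 1.12 to 3.29 CPM. INS, GCG and SST were not among the genes of the table, so the β-cell identity of the cultures could not be checked on the hormones themselves. Markers of other cells were present too: KRT19, a keratin of duct and progenitor epithelium, was at 1486 and 1519 CPM in the H1 inputs and at 7031 and 7892 CPM in the MEL1 inputs. None of the 5 enterochromaffin and none of the 4 acinar markers had a peak. In bulk samples fewer cells of a type and less RNA per cell cannot be told apart.

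Across the 7977 genes tested, 2225 were enriched and 2298 were depleted in the IP, which is 27.9% and 28.8% of the genes. A gene's value is its log2 ratio of IP to input over all its merged peaks, and a call needed an adjusted p under 0.1 and a ratio of at least 2 either way (edgeR quasi-likelihood test with the preparation as a block). The ratios are relative to the other transcripts: the median gene stood at 0.15 on the scale used here, and a depleted transcript is one that was pulled down less than the typical gene of the table, not one without m6A. With library totals 4341 genes counted as enriched and 1394 as depleted, and scaling to the mitochondrially encoded transcripts, which moves the median gene to 6.15, gave 7716 and 23, so every count below holds for the scale that puts the typical gene near 0. At the level of peaks, 7917 of 26063 were enriched and 9375 depleted (30.4% and 36%). Values of peaks and of genes have their own zero points: for the 2339 genes with 1 merged peak, the peak value was a median of 0.82 higher than the gene value from the same reads. The preparations gave similar values across genes. Across the 5283 genes with at least 20 input reads in every library, Pearson's r between preparations was 0.990 in H1, 0.955 in MEL1 and 0.942 to 0.944 between the lines, a description over genes that share libraries. Of these 5283 genes, 4434 had the same sign in all 4 preparations.

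Among genes with at least 20 input reads in each library, the most enriched were HGSNAT, a lysosomal acetyltransferase, TCIM, a regulator of Wnt signalling, EXOSC6, a subunit of the RNA exosome, RSF1, a chromatin remodelling factor, the adhesion receptor ADGRA3, the ER-phagy receptor RETREG1, the endocytic protein EHD4 and the corepressor CTBP2. Their fitted values ran from 3.21 ± 0.22 (SE) for HGSNAT to 2.85 ± 0.11 for CTBP2, and 7 of the 8 had a single merged peak. TCIM held 99 and 100 input reads against 4214 and 5668 IP reads in H1, and 169 and 203 against 15995 and 9514 in MEL1. Its 4 ratios lay between 2.76 and 3.57, so every preparation placed it far above the median gene. CTBP2 varied less, from 2.73 to 2.94 over the 4 preparations.

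Among genes with at least 20 input reads in each library, the lowest value was that of ARPC1A, a subunit of the actin-nucleating Arp2/3 complex. It held 26 to 120 input reads and at most 1 IP read in a library, so that its value of -9.80 ± 0.55 rests on almost no IP reads. The other 7 of the 8 lowest genes were noncoding RNAs or loci that share reads with a near-identical or overlapping copy, and their values are uncertain for any one locus. They were RN7SL1, RN7SL4P and RN7SL5P, which match the RNA of the signal recognition particle, RMRP, the RNA of an RNase, the pseudogene RPLP0P9 of a ribosomal protein, and 2 loci given by identifier (ENSG00000283029 and ENSG00000269900) whose counts nearly repeat those of RN7SL1 and RMRP. RN7SL1 held 21900 to 48541 input reads and 377 to 702 IP reads per library and was depleted at -8.66 ± 0.17.

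Low values were also found in abundant protein-coding transcripts. Among the 1458 protein-coding genes with at least 200 input reads in each library, a group set after the values were seen, among the lowest were PRDX1 (-7.61), a peroxidase, whose value of -10.48 in MEL1 replicate 1 rests on 4 IP reads and stands apart from -7.38 to -6.96 in the other 3 preparations, the ribosomal protein gene RPL10A (-7.07), LIN28A (-6.83), an RNA-binding protein of stem cells, PABPC1 (-6.63), which binds poly(A) tails, and the glycolytic enzyme gene GAPDH (-6.62). GAPDH gave -6.62, -6.39, -6.73 and -6.72 in H1 replicates 1 and 2 and MEL1 replicates 1 and 2, a spread far smaller than its distance from the median gene. These values lie within the range of the 15 mitochondrially encoded transcripts, which were all depleted, from -7.17 for MT-RNR1 to -4.98 for MT-CYB, apart from the fitted value of PRDX1. At the upper end of the same group stood RBM12B (2.32 ± 0.19), which encodes an RNA-binding protein, PLEKHO1 (2.28 ± 0.13) and the nuclear receptor NR2F1 (2.27 ± 0.10). NR2F1 held 2797, 2364, 610 and 540 input reads against 64226, 86540, 23711 and 18009 IP reads. Its ratios were 2.14 to 2.47.

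Transcripts with low input had higher values among the 5283 genes with at least 20 input reads in each library. With these genes cut into 4 equal bins by mean input level, the median log2 ratio was 0.43 in the lowest bin and then 0.11, -0.22 and -1.21 in the highest. The input level is also the denominator of the ratio, and the table lists only genes in which a peak was called at some stage. The part of either in the relation was not tested. Each endocrine and neuronal list below is given both over all its members and over those with at least 20 input reads in each library, where 18.5% of all genes were enriched and 34.5% depleted.

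**Figure D1:**
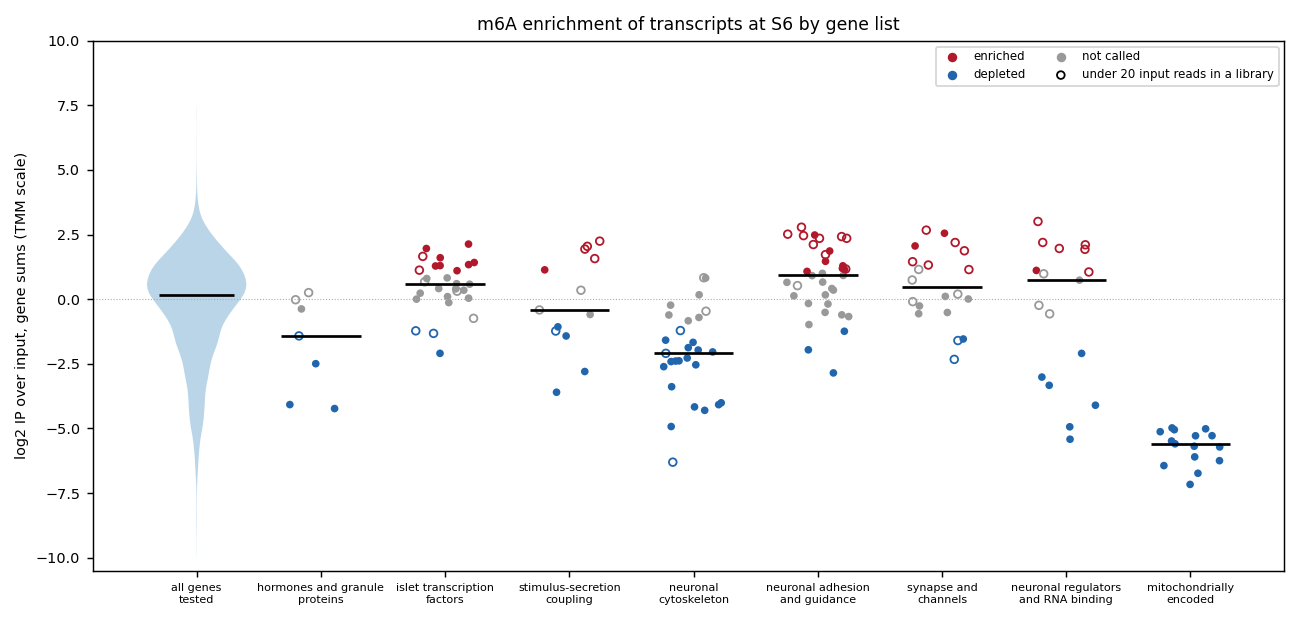
Log2 IP over input of each gene (vertical axis, gene sums on the TMM scale) for all 7977 genes tested (violin) and for the members of the 7 endocrine and neuronal lists and the mitochondrially encoded transcripts. Each point is a gene, open where a library holds under 20 input reads, and black lines are medians: the cytoskeletal list has its median at -2.07 and the adhesion list at 0.92, while all mitochondrial transcripts lie below -4.9.

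Over all members, the endocrine and neuronal classes gave shares near the 27.9% and 28.8% of the whole table: of 48 endocrine genes tested 15 were enriched and 12 depleted, and of 100 neuronal genes 31 were enriched and 32 depleted. With at least 20 input reads in each library, 9 of 31 endocrine genes were enriched and 8 depleted, and 10 of 64 neuronal genes were enriched and 27 depleted, where all genes gave 18.5% and 34.5%. The smaller lists within each class parted from one another, as the plot of enrichment by gene list shows.

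Hormone and secretory granule transcripts were depleted or not called. Of 33 genes on this list 7 had a peak and were tested, and 4 were depleted, 3 passed no threshold and 0 were enriched, with a median of -1.42 (all genes 0.15). Of the 4 with at least 20 input reads in each library 3 were depleted, with a median of -3.29. CHGA, which encodes chromogranin A, the scaffold protein of dense-core granules, held 4560, 3541, 1930 and 1803 input reads and 4444, 6047, 2162 and 1908 IP reads in H1 replicates 1 and 2 and MEL1 replicates 1 and 2. All 4 ratios were low, from -2.83 to -2.28, and the fitted value was -2.50 ± 0.12 (edgeR adjusted p = 2.45e-07). CPE, the carboxypeptidase that trims prohormones, was depleted at -4.23 ± 0.61 on 24 to 92 input reads, with 1 IP read in MEL1 replicate 2. The INS-IGF2 readthrough gene, which overlaps both INS and IGF2 and whose reads cannot be assigned to either, was depleted at -4.08 ± 0.17 with ratios of -4.42 to -3.53. The granule peptide precursor VGF gave -0.38 ± 0.20, which passed no threshold. SCG5, a chaperone of a prohormone convertase, was depleted at -1.42 on a lowest input count of 10 reads. The list's median minus that of all genes stayed at -1.59 to -1.56 with library totals, the normalization factors of the peaks or mitochondrial scaling, although in the last all 7 members counted as enriched.

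Transcription factors of the islet lineage were more often enriched than depleted. Of 47 on the list 28 were tested, and 10 were enriched, 3 depleted and 15 not called, with a median of 0.59. The shares were 35.7% enriched and 10.7% depleted, against 27.9% and 28.8% of all genes. Among the 21 with at least 20 input reads in each library 8 were enriched and 1 was depleted. ONECUT1, a factor of pancreatic progenitors, led with ratios of 2.01, 2.17, 2.18 and 2.13 and a fitted value of 2.13 ± 0.13 (edgeR adjusted p = 1.21e-06). SOX9, a progenitor and duct factor, was at 1.60 ± 0.12, MEIS2, a homeobox cofactor, at 1.42 ± 0.11 and GLIS3, needed for INS transcription, at 1.34 ± 0.16. In each of these 4 genes all 4 preparations lay above 1, but the GLIS3 peak of most input reads alone gave -0.66.

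PDX1, the master regulator of pancreas and β-cell identity, was enriched at 1.12 ± 0.14 although its input was at 10 and 17 reads in H1. Its 4 ratios were 0.81, 1.32, 1.08 and 1.20, and the lines overlapped in enrichment while their input levels were 2.79 to 3.83 CPM in H1 and 52.3 to 60.6 CPM in MEL1. Its peak of most input reads gave 0.66 and was not called. ISL1, a LIM-homeodomain factor of endocrine cells and motor neurons, was enriched at 1.66 ± 0.36 on 4 to 11 input reads. At the other end IRX1, a homeobox factor, was depleted at -2.10 ± 0.28. It gave -1.50 and -1.60 in H1 and -2.83 and -2.65 in MEL1, below 0 in all 4. FOXA2, the pioneer factor of endoderm (0.10 ± 0.10), SOX4 (0.23 ± 0.09), SOX11 (0.04 ± 0.09), PROX1 (0.00 ± 0.25) and IRX2 (-0.13 ± 0.14) were close to the median gene and were not called. With library totals 23 of the 28 counted as enriched, with the peaks' normalization factors 20, and with mitochondrial scaling all 28, while the list's median stayed 0.43 to 0.47 above that of all genes.

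Genes for glucose sensing, ion flux and exocytosis went both ways, 5 enriched and 5 depleted of 13 tested (40 on the list, median -0.42). That was 38.5% each way, where all genes gave 27.9% and 28.8%. Of the 6 with at least 20 input reads in each library 1 was enriched and 4 were depleted, with a median of -1.25. The list's median was 0.08 with H1 alone and -0.13 with MEL1 alone, so its sign turned with H1 alone. SLC2A1, the glucose transporter GLUT1 and the most abundant of them, held 7042 to 14855 input reads and 15881 to 38024 IP reads per library. Its ratios of -1.43, -1.38, -1.46 and -1.42 were almost the same in all preparations, and it was depleted at -1.42 ± 0.09. The vesicle SNARE VAMP2 was depleted at -3.60 ± 0.32 and RAB3B, a small GTPase of secretory vesicles, at -2.80 ± 0.34. ATP2A2, the calcium pump of the endoplasmic reticulum, was depleted at -1.07 ± 0.22, but its ratios of -1.56 and -1.55 in H1 and -0.56 and -0.59 in MEL1 did not overlap, and the call was lost in 4 alternatives, among them MEL1 alone at -0.62. RGS16, an inhibitor of G-protein signalling, was enriched at 1.13 ± 0.12. KCNJ11, the pore of the KATP channel, was also enriched (2.25 ± 0.61), with 0 to 17 input reads and 84 to 223 IP reads, so that the depth sets only a wide range for its ratio.

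**Figure D2:**
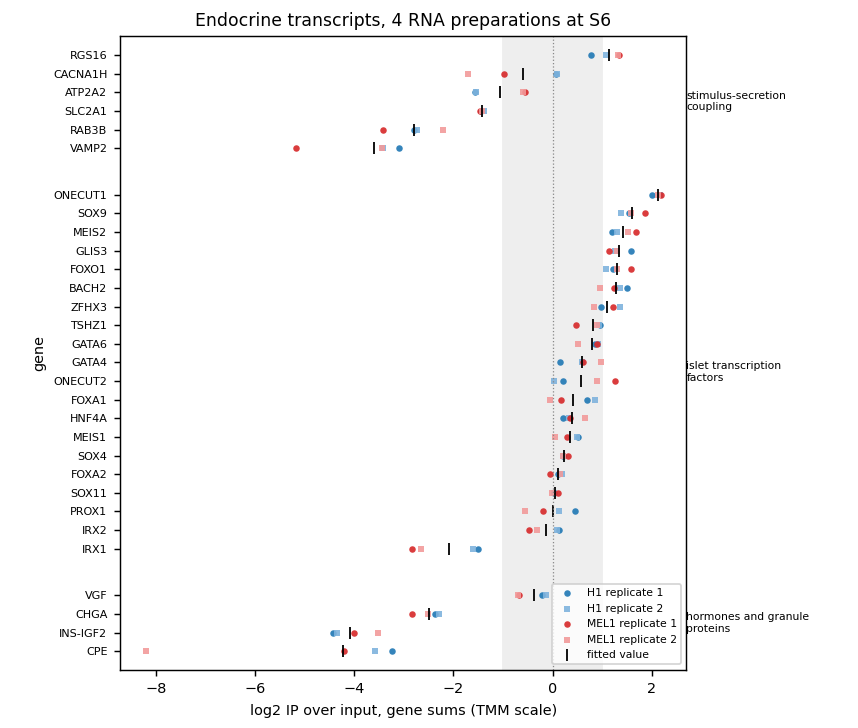
Log2 IP over input (horizontal axis, gene sums on the TMM scale) of 30 endocrine genes with at least 20 input reads in each library, grouped by list. Coloured points are the 4 RNA preparations, black ticks the fitted values and the grey band a ratio under 2-fold: ONECUT1 (2.13) sits at the top of the islet factors and CPE (-4.23) lowest, with 1 MEL1 preparation far from the others.

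Transcripts of the neuronal cytoskeleton had the lowest median of the 7 endocrine and neuronal lists over all members, but not among genes with at least 20 input reads in each library. Of 28 tested (40 on the list) 20 were depleted, 8 were not called and 0 were enriched, against 28.8% depleted in the whole table, and the median was -2.07. Among the 23 with at least 20 input reads in each library 17 were depleted and the median was -2.28. TUBA1A, the α-tubulin of migrating neurons, held 8106, 6424, 808 and 651 input reads but 1578, 1977, 211 and 90 IP reads. Its 4 ratios ran from -5.44 to -4.69, the fitted value was -4.93 ± 0.15 (edgeR adjusted p = 1.87e-08), and this lies next to the mitochondrial transcripts.

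The neurofilament genes NEFL (-4.17 ± 0.19) and NEFM (-4.01 ± 0.11), the microtubule regulators STMN2 (-4.08 ± 0.14) and DPYSL3 (-4.30 ± 0.21) and the axonal kinesin KIF1A (-3.39 ± 0.11) followed. NEFM held 15868 and 12224 input reads in H1 against 934 and 876 in MEL1, yet the ratios were -3.95, -3.87, -4.04 and -4.20, so that a more than 10-fold gap in input reads went with nearly equal enrichment. UCHL1, a ubiquitin hydrolase abundant in neurons and endocrine cells, was lowest at -6.31 ± 0.41 on 15 to 209 input reads, with 0 and 1 IP reads in the MEL1 libraries. The tubulins TUBB2B (-2.28 ± 0.09) and TUBB2A (-2.04 ± 0.09), which share sequence, and MAP1B (-1.88 ± 0.11), a microtubule-associated protein of growing axons, were less depleted. Relatives of these genes were not: KIF1B gave 0.17 ± 0.10 and MAP1A 0.82 ± 0.12, and neither was called. The list's median minus that of all genes stayed at -2.29 to -2.19 under the alternative scalings, while mitochondrial scaling counted 27 of the 28 as enriched.

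Receptors and adhesion molecules of axon guidance stood on the other side. Of 35 tested (60 on the list) 16 were enriched, 3 depleted and 16 not called, with a median of 0.92. The shares were 45.7% enriched and 8.57% depleted, against 27.9% and 28.8% of all genes. With at least 20 input reads in each library the split was 7 enriched and 3 depleted of 25, and the median 0.41. NRP1, the co-receptor of semaphorins and VEGF, was at 2.48 ± 0.19, with ratios of 2.03, 2.26, 2.62 and 3.02. The teneurin TENM4 was at 1.86 ± 0.14 and FLRT3, a ligand of latrophilins and Unc5 receptors, at 1.46 ± 0.12. FLRT3 held 320 to 517 input reads against 4661 to 13043 IP reads, and all 4 ratios were above 1. The related TENM3 (1.15 ± 0.12), the protocadherin PCDH10 (1.29 ± 0.14), LRRN1 (1.19 ± 0.13) and the plexin PLXNA2 (1.08 ± 0.11) were enriched too. The 3 depleted members were L1CAM (-2.85 ± 0.13), an adhesion molecule of axons, CBLN1 (-1.96 ± 0.20), a secreted synapse organizer, and CADM3 (-1.24 ± 0.22). The CADM3 call was lost with MEL1 alone at -0.88. It was also lost at -0.94 when only genes with at least 20 input reads were fitted, where the zero point of all genes moved. L1CAM gave -3.09 to -2.60 in the 4 preparations.

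Genes of the synapse and of neuronal channels had a median of 0.47, with 8 enriched and 3 depleted of 20 tested (63 on the list). That was 40% and 15%, where all genes gave 27.9% and 28.8%. The postsynaptic scaffold SHANK2 was enriched at 2.55 ± 0.19 on 32 to 43 input reads, while its relative SHANK3 gave 0.11 ± 0.19 on 27 to 79 input reads. The 4 SHANK2 ratios (2.11 to 3.15) lay above all 4 of SHANK3 (-0.22 to 0.27). CAMK2G, a subunit of a calcium-dependent kinase, was enriched at 2.06 ± 0.16. SV2A, a glycoprotein of synaptic vesicles, was depleted at -1.54 ± 0.12 on 116 to 1480 input reads. Its ratios of -1.81 to -1.32 were all below -1. Only 8 members reached 20 input reads in each library, of which 2 were enriched and 1 was depleted, and their median of -0.13 had the opposite sign to that of all 20. With the peak of most input reads for each gene the median was 0.16.

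Neuronal regulators and RNA-binding proteins split into 7 enriched and 6 depleted of 17 tested (40 on the list), with a median of 0.74. That was 41.2% and 35.3%, where all genes gave 27.9% and 28.8%. The 6 depleted members were BEX2 (-5.42 ± 0.31) and BEX1 (-4.10 ± 0.20), small adaptor proteins, MSI1 (-4.94 ± 0.49) and RBFOX2 (-3.01 ± 0.20), which bind RNA, RCOR2 (-3.33 ± 0.19), a corepressor partner of REST, and HES6 (-2.10 ± 0.30), which promotes neuronal differentiation. All 6 were among the 8 members with at least 20 input reads in each library, where 1 was enriched and the median was -3.17, of the opposite sign to that of all 17. BEX1 held 776 to 1324 input reads and 213 to 605 IP reads, and its 4 ratios were -3.57, -3.83, -4.33 and -4.72. CBFA2T2, a transcriptional corepressor, was the enriched one at 1.11 ± 0.10, with ratios of 1.05 to 1.14. POU3F2, a POU-domain factor of neuronal fate, just missed the input limit at 18 reads and was enriched at 2.19 ± 0.12, on 461 and 569 input reads in H1. REST, the repressor that silences neuronal genes in other tissues, gave 0.74 ± 0.12 and was not called.

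**Figure D3:**
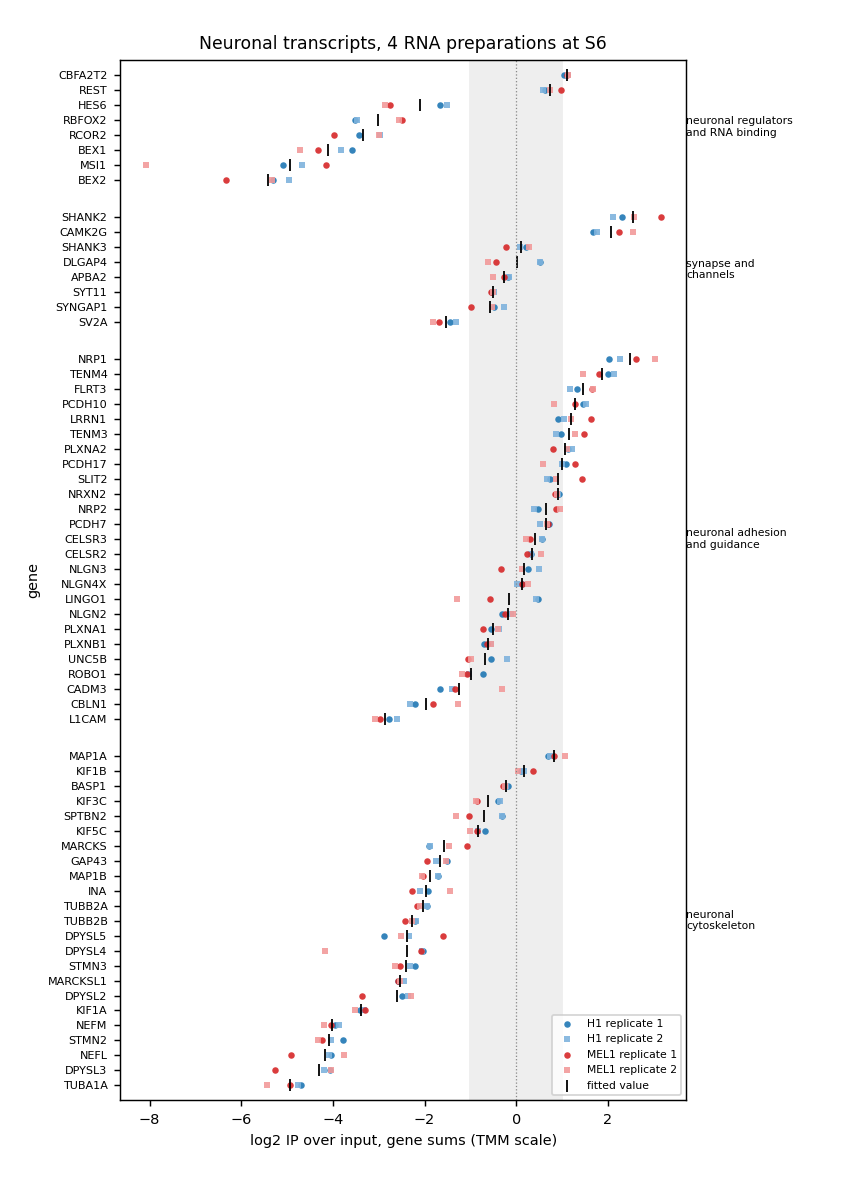
Log2 IP over input (horizontal axis, gene sums on the TMM scale) of the 64 neuronal genes with at least 20 input reads in each library, grouped by list. Coloured points are the 4 RNA preparations, black ticks the fitted values and the grey band a ratio under 2-fold: most cytoskeletal genes lie left of the band, down to TUBA1A at -4.93, and SHANK2 (2.55) and NRP1 (2.48) lie furthest right.

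Enrichment differed along single transcripts. Over 7413 peaks of 2287 genes with at least 2 peaks of 20 or more input reads per library, 69.6% of the variance of the peak values lay between genes, and the median range within a gene was 2.23. In 386 of these genes (16.9%) an enriched and a depleted peak stood in the same transcript. A peak is named here by the position in its deposited name, which is read as base pairs along the gene in 50 bp bins, and the end and transcript model it is counted from are not given in the sources used here. Medians by place over peaks of that input pool different genes: 1988 last peaks had a median of -0.19, 1898 first peaks away from position 1 had -0.35, inner peaks had -0.99 and 140 peaks at position 1 had -1.97. Within the 84 genes in which both the last peak and one at position 1 held at least 20 input reads in each library, the order was the other way, with the last peak higher in 30 genes and a median of last minus position 1 of -0.58, which was negative in all 4 preparations (-0.89 to -0.10).

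SOX4, a progenitor factor shared by endocrine and neuronal lineages, shows the pattern on a deeply covered transcript. Its peaks at positions 1101 and 2901 were enriched, at 1.60 ± 0.13 and 1.35 ± 0.12, while the peaks at 1001 (-3.33 ± 0.34) and 1751 (-1.68 ± 0.27) were depleted, so that its gene value of 0.23 averages over both. BASP1, a membrane protein of growth cones, had 1 enriched peak, at 951 (1.46 ± 0.14), among 5 depleted ones. In SLC2A1 the peak at 825 stood at -0.22 ± 0.12 and passed no threshold, whereas the peak at 2375 was depleted at -6.50 ± 0.19. The peak at 825 held most reads of the gene in input and IP alike. In H1 replicate 1 these were 11336 of 14855 input reads and 26534 of 27686 IP reads. MAP1B had 1 enriched peak among its 22, at 5201 (1.21 ± 0.19), on a lowest input count of 9. NEFM was depleted in all 8 of its peaks, from -3.70 to -2.56, and CHGA in 3 of 4, with the peak at 1751 (-0.78 ± 0.15) not called.

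**Figure D4:**
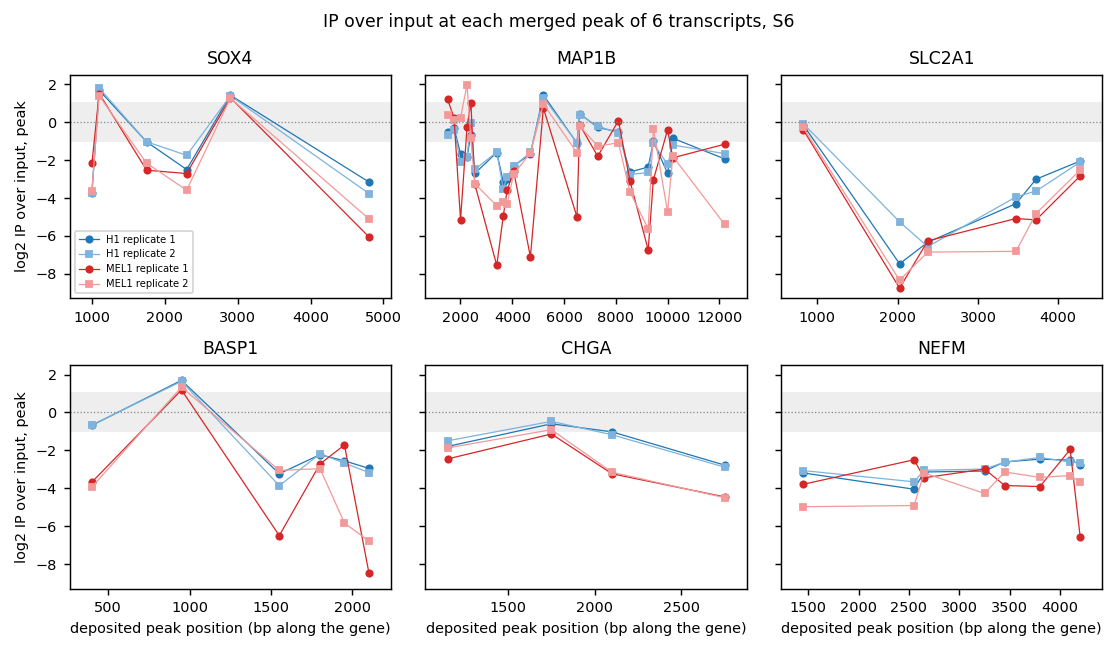
Log2 IP over input (vertical axis, peak values) against the deposited position of each merged peak in bp along the gene (horizontal axis) for 6 transcripts, with a line for each RNA preparation. SOX4 rises above the grey 2-fold band at separate peaks, to 1.60, and BASP1 at a single peak (1.46). SLC2A1 falls to -6.50 at position 2375 and NEFM stays low at every peak.

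Enrichment was then compared between the lines, since both replicates of a line share its background. The paper removed a batch effect in H1 and MEL1 before its sample plot and does not say what the batches were. A batch that went with the line cannot be told apart from the line here. In the test of the difference, 128 of 26063 peaks were more enriched in MEL1 and 1223 less enriched than in H1 (0.491% and 4.69%, edgeR adjusted p under 0.1 and 2-fold). Of the 172 endocrine peaks 2 were higher and 16 lower in MEL1, and of the 425 neuronal peaks 4 were higher and 30 lower. These counts moved strongly whichever preparation was left out, down without either H1 replicate and up without either MEL1 replicate. Such a fit leaves a lone preparation in that line, which was assumed to vary like the pair of the other line. The lines also differed in their cells at S6. The hepatic marker AFP was at 1.12 and 1.80 CPM in H1 and 220 and 222 CPM in MEL1, the intestinal factor CDX2 at 107 and 108 against 395 and 442 CPM, and SOX2, a stem cell and neural factor, at 718 and 776 against 159 and 194 CPM. Of the neuronal genes, TUBA1A ran from 238 CPM in a MEL1 input to 1825 CPM in an H1 input, while BEX1 stayed at 261 to 342 CPM. The part of these transcript levels in the line differences was not tested.

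CHGA was among the differing endocrine transcripts, and its examples were chosen after their values were seen. At position 2101 the ratios were -1.03 and -1.18 in H1 and -3.24 and -3.16 in MEL1, a difference of -2.10 (edgeR adjusted p = 0.00166), and at position 2751 the difference was -1.65. ONECUT2, a paralogue of ONECUT1, went the other way, with -0.98 and -0.79 in H1 and 2.18 and 2.39 in MEL1 at position 8001, a difference of 3.21 that rests on 10 and 16 MEL1 input reads. Among neuronal transcripts, position 401 of BASP1 was lower in MEL1 by a log2 difference of -3.14 (edgeR adjusted p = 0.000121), with ratios of -0.68 and -0.66 against -3.68 and -3.93. The peaks of RBFOX2 at 7865 and 8715 were higher in MEL1, by 2.27 and 1.93. In each of these peaks the preparations of 1 line lay wholly above those of the other. All of these calls but that of BASP1 at 401 were lost when H1 replicate 1 was left out. The 3 peaks with the largest differences each way, in SCO1, ZNF85 and JMY (lower in MEL1) and in FXYD6-FXYD2, SLTM and FAM86C1P (higher), had 0 reads in the input or the IP of at least 1 library, and their sizes of -12.65 to 7.49 depend on the prior count of the fit.

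**Figure D5:**
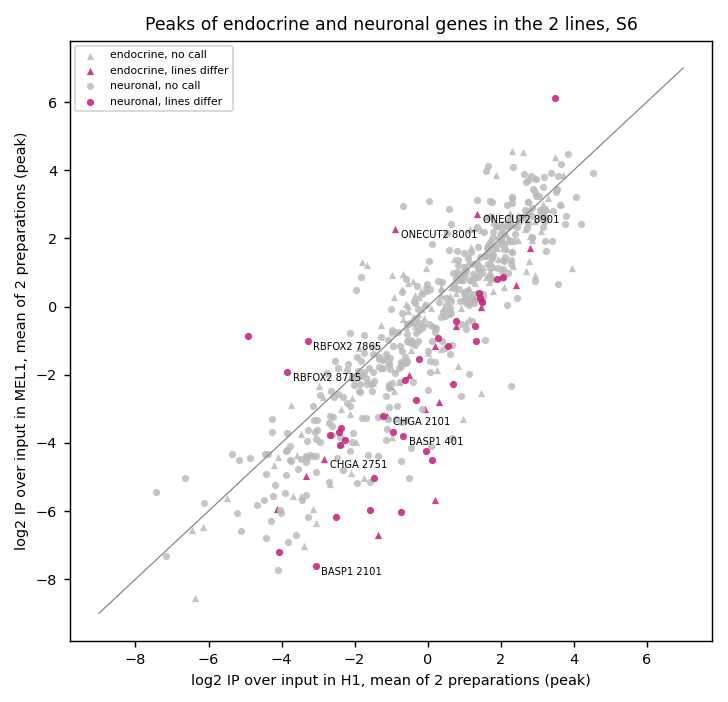
Mean log2 IP over input of 2 preparations in H1 (horizontal axis) and in MEL1 (vertical axis) for each peak of the endocrine (triangles) and neuronal (circles) genes, with the line of equality. Coloured peaks are those called different between the lines, 6 above and 46 below the line of equality, and the peaks named in the text are labelled.

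Against the undifferentiated cells, the main test called few peaks as changed in enrichment at S6, and the count depended on the method. The test of stage by library type over all 32 libraries called 13 of 26073 peaks higher and 34 lower at S6 than at S0 (0.0499% and 0.13%). Of the 172 endocrine peaks 4 were higher and 0 lower, and of the 425 neuronal peaks 0 were called, with 28 and 38 at an unadjusted p under 0.05 beside 2953 of all 26073 peaks. The 4 peaks lay in endoderm transcription factor genes that had almost no reads in hESCs: FOXA1 at 1983 (4.34 ± 0.76), HNF4A at 2401 (2.92 ± 0.60), FOXA2 at 604 (2.68 ± 0.47) and GATA6 at 2251 (2.56 ± 0.49). FOXA1 held 1, 2, 4 and 5 input reads and 0, 6, 1 and 3 IP reads at S0, against 56, 38, 91 and 114 input reads and 914, 1281, 1547 and 1410 IP reads at S6. At S0 the ratio of IP to input could thus not be set with any precision. FOXA2 was better covered at S0, with 8 to 16 input and 4 to 29 IP reads, against 201 to 258 and 1842 to 2592 at S6. The adjusted p of these 4 peaks was 0.0537 to 0.0764, and all 4 calls were lost whenever any S6 preparation was left out. DESeq2 made far more calls in the whole table, 260 higher and 1068 lower. With only the 16 libraries of S0 and S6, edgeR called 102 higher and 335 lower.

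Against posterior foregut cells at S3, edgeR over all 32 libraries called 0 peaks in either direction, with 649 at an unadjusted p under 0.05. DESeq2 called 10 higher and 5 lower, and edgeR with only the 16 libraries of S3 and S6 called 26 and 4. The log2 change from S3 to S6 was -0.23 for the FOXA1 peak at 1983 and -0.62 for that of FOXA2 at 604, with no call for either. Both stage comparisons share the S6 libraries.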

How the data were processed

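The authors prepared IP and input libraries with the EpiMark m6A kit and a TruSeq stranded kit, mapped the reads, and used MeRIPtools with 50 bp bins of Ensembl version 94 genes to call and merge peaks. They deposited raw read counts per merged peak; the aligner, genome build and peak settings are not given in the sources used here. Here 31 rows that repeat the X copy of pseudoautosomal genes were left out, and 7938 of 7978 gene IDs were matched to a symbol. Counts were summed over the merged peaks of a gene. Peaks or genes with at least 10 reads were tested with edgeR 4.0.16 (quasi-likelihood, TMM), with the RNA preparation as a block (4 blocks, 3 residual degrees of freedom), and p-values were adjusted by Benjamini-Hochberg over all features. Ratios of a preparation use a prior count of 0.5, and an SE is the log2 ratio over the square root of F. IP and input of a preparation are paired by the design, which kept the input from the same mRNA. Their deviations between replicates correlated at -0.019 in H1 and 0.093 in MEL1. Scripts were tested on simulated data. DESeq2 1.42.0, other scalings, filters, line subsets and the omission of each preparation were alternatives. Named genes were, with at least 20 input reads in each input library, the 8 highest and 8 lowest called genes and the 3 highest and 3 lowest of each endocrine or neuronal list (all where a list had few), and, with no such limit, members with a called stage change and the 3 largest line differences each way. Some genes are not reported here. Other genes named were chosen after their values were seen. The members and lists were chosen with earlier results of these data known. The SEs take in the spread between the preparations. Counting error, where it is named below, treats reads as independent, in libraries without molecular identifiers.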

Additional observations from a re-analysis of the deposited data

Results flagged for a closer look

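In 9 of the 117 genes named, 1 of the 4 preparations stood far from the other 3 by Dixon's test, which chance gives in about 1 of 20 groups. They were ARPC1A (-10.35, H1 replicate 2, with 0 IP reads), the locus ENSG00000283029 (-9.18, MEL1 replicate 1), VAMP2 (-5.17, MEL1 replicate 1, on 38 input and 8 IP reads), DPYSL3 (-5.26, MEL1 replicate 1, on 74 input and 15 IP reads), GATA6 (0.51, MEL1 replicate 2), PABPC1 (-7.37, MEL1 replicate 2), PRDX1 (-10.48, MEL1 replicate 1, with 4 IP reads), SOX4 (0.30, MEL1 replicate 1) and UCHL1 (-8.55, MEL1 replicate 1, on 23 input and 0 IP reads). All were ratios that kept the sign of the other preparations.

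The lines differed in the test of the difference itself at the following peaks, given as MEL1 minus H1 on the log2 scale. The differences were -12.65 at SCO1 6226, -9.98 at ZNF85 2901, -9.36 at JMY 3651, 6.90 at FXYD6-FXYD2 433, 7.14 at SLTM 6008 and 7.49 at FAM86C1P 1451, each with 0 to 5 input reads in both libraries of 1 line, apart from FXYD6-FXYD2, which had 1 and 0 IP reads in H1. They were -3.14 at BASP1 401, -6.41 at BASP1 2101, -2.10 at CHGA 2101 and -1.65 at CHGA 2751. At ONECUT2 8001 and 8901 the differences were 3.21 and 1.39, and at RBFOX2 7865 and 8715 they were 2.27 and 1.93.

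Stages differed in the test of the difference at 4 endocrine peaks, given as S6 minus S0 on the log2 scale: 4.34 at FOXA1 1983, 2.68 at FOXA2 604, 2.56 at GATA6 2251 and 2.92 at HNF4A 2401. At S0 these peaks held 1 to 16 input reads and 0 to 29 IP reads per library.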

How the results depend on the processing

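The counts of enriched and depleted genes and peaks stayed within 1.5 times with DESeq2, relative-log-expression (RLE) size factors, no filter, filterByExpr, all 32 libraries, no replicate block, either line alone and each omitted preparation. Leaving out a preparation gave 6868 to 7411 enriched and 8575 to 9696 depleted peaks, and 2140 to 2249 and 2230 to 2288 genes. Without the replicate block 8114 and 9611 peaks and 2221 and 2305 genes were called. Scaling moved the zero point: library totals gave 4341 enriched and 1394 depleted genes, mitochondrial scaling 7716 and 23 genes and 21705 and 451 peaks, and the normalization factors of the peaks, added after seeing the data, 3897 enriched genes. Requiring 20 input reads, also added later, gave 1383 enriched genes, which included all 975 enriched before among the 5283 tested. In that fit the median of these genes was 0.12, against -0.18 in the main fit. The values of the 2 fits correlated at 0.999998 across genes, so the zero point had moved. With the peak of most input reads GLIS3 turned from 1.34 to -0.66, and PDX1 (0.66), NR5A2 (0.38), APOB (0.87) and PDGFRA lost their calls. With H1 alone RGS16 (0.91), LRRN1 (0.97), TENM3 (0.93), VIRMA (0.89) and PDGFRA (0.59) lost theirs, and with MEL1 alone PLXNA2 (0.91) and SCG5 did, beside ATP2A2 and CADM3.

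For the line difference, higher and lower calls were 196 and 628 with RLE, 639 lower with DESeq2, and 218 higher and 1608 lower without the replicate block; the omission of preparations gave 3 to 1910 and 65 to 3260. For S6 against S0 they were 260 and 1068 with DESeq2, 14 lower with RLE, 102 and 335 with the 16 libraries of the 2 stages, and 20 and 306 without the replicate block, where the HNF4A peak lost its call; omissions gave 1 higher and 0 to 5 lower. For S6 against S3 they were 10 and 5 with DESeq2 and 26 and 4 with the 16 libraries. The cause of these moves was not tested. The pairs of replicates at S6 differed by more than counting error, and more in MEL1 IP than in the other libraries (chi-square per degree of freedom 13.7 against 1.68 to 4.59).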

Other observations

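Marker transcripts of other cell types were more often depleted than enriched at S6 in every list given here but the acinar one. Of all genes 27.9% were enriched and 28.8% depleted (18.5% and 34.5% with at least 20 input reads in each library). Of 12 duct and progenitor genes tested 6 were depleted and 1 was enriched, with KRT19 at -5.90 ± 0.12, KRT18, a keratin of simple epithelia, at -3.88 ± 0.28 and the adhesion molecule EPCAM at -3.68 ± 0.12; with at least 20 input reads in each library 5 of 9 were depleted and 0 enriched. Of 10 hepatic and gut genes 6 were depleted, among them AFP (-6.23 ± 0.25, with 8 and 4 input and 0 IP reads in H1), VTN (-4.53 ± 0.19) and APOE (-4.04 ± 0.30), while CDX2 (1.24 ± 0.10) and APOB (1.38 ± 0.23, on a lowest input count of 3) were enriched, and 4 of the 6 with that input were depleted. Of 10 mesenchymal genes 5 were depleted, with FN1, which encodes fibronectin, at -5.51 ± 0.12, and PDGFRA was the enriched one at 1.16 ± 0.46, on 1 and 2 input reads in MEL1 (2.80 and 2.05) and 26 and 23 in H1 (0.77 and 0.33), where the call was lost with H1 alone at 0.59; with that input 5 of 8 were depleted. Of 10 pluripotency genes 4 were depleted, 1 was enriched and 5 were not called, and with that input 4 of 8 were depleted. The acinar factor NR5A2 was enriched at 1.93 ± 0.24, but at 0.38 and not called in its peak of most input reads. The 13 genes of the cell cycle gave 9 depleted and 0 enriched, with TOP2A at -4.73 ± 0.13 and MKI67, not called, at -0.58 ± 0.09, and with that input 7 of 11 were depleted.

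Transcripts of the m6A machinery gave these counts: 11 of 16 tested were not called, 3 were depleted and 2 enriched. The readers IGF2BP1 (-3.96 ± 0.18) and IGF2BP2 (-2.71 ± 0.11) and the demethylase ALKBH5 (-2.49 ± 0.13) were depleted, and the writer subunits RBM15 (2.09 ± 0.22, on a lowest input count of 15) and VIRMA (1.57 ± 0.57, on a lowest input count of 0) were enriched. WTAP (0.75 ± 0.10) and YTHDF2 (0.90 ± 0.10) were not called, and with at least 20 input reads in each library 0 of 13 were enriched and 3 depleted. Of 304 zinc-finger genes named ZNF 157 were enriched and 16 depleted (median 1.08), or 47 and 12 of the 158 with that input (median 0.64). Of 19 ribosomal protein genes 13 were depleted and 1 was enriched, or 8 and 0 of the 11 with that input.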
